A study of Mus musculus with 12 samples.

Results

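Wild-type bone marrow derived macrophages were compared with and without 24 h of LPS+IFNγ, across every gene measured. The comparison uses 4 of the 12 libraries of the study, picked by sample title and genotype label: 2 control and 2 LPS+IFNγ libraries whose titles begin with B6 and whose genotype label is PTPRZ_WT. Marrow cells were cultured for 6 days in 10 ng/mL M-CSF, a growth factor under which marrow progenitors become macrophages. Stimulated cells then had 100 ng/mL LPS, a cell wall lipid of Gram-negative bacteria, together with 10 ng/mL IFNγ, a T and NK cell cytokine, for 24 h. How long control cells were kept beyond the 6 days is not given in the labels. The study's other groups are cells lacking the receptor phosphatase Ptprz1 (KO) under the same treatments, and cells of both genotypes given 20 ng/mL IL-4 for 24 h, with 2 libraries each. A targeted Ptprz1 strain is named in the strain label of all samples, those labelled wild type among them. The cells are a culture of one lineage outside the animal. Nothing in the labels says whether libraries of a group are separate animals or cultures. The spread between these samples may be technical, and the p-values measure that spread only.

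LPS is sensed by TLR4, which signals to NF-κB, AP-1 and, through type I interferon, to STAT proteins. IFNγ acts through its own receptor to STAT dimers, which bind GAS elements and induce IRF1, while STAT complexes with IRF9 bind ISRE elements. Macrophages given both signals are known for nitric oxide production, antigen presentation, inflammatory cytokines and a switch to glycolysis, and for leaving the cell cycle.

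The libraries held between 13665607 and 19555600 counts over the series and between 17505261 and 18213424 in the 4 compared. Ptprz1 itself had 0 counts in the 4 libraries, which allows up to 0.204 CPM, so its RNA does not check the genotype label. Between libraries of a group, log2(CPM + 1) correlated at r = 0.992 in controls and r = 0.993 after LPS+IFNγ across genes, which are not independent replicates. All 11 macrophage markers were tested, and their summed level was 16066 and 16039 CPM in control and 19467 and 18363 CPM in stimulated libraries. Summed stromal markers, such as collagens, were at 91.3 and 464 CPM in control and 80.2 and 275 CPM in stimulated libraries, so libraries numbered 2 held more of them in both groups. Granulocyte markers summed to 38.0 and 47.0 CPM and then 214 and 197 CPM, with S100a8 and Csf3r (named after their values were seen) the 2 of 6 tested members that rose. The other 4 were not called, and the median log2 fold change of the 6 was −1.925, so the sum does not stand for the list. T and NK cell markers stayed at or under 2.53 CPM in sum, with 5 of 10 at 0 in all 4 libraries. The part of other cells in the results was not tested. In bulk RNA, fewer cells of a type and less RNA per cell cannot be told apart.

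Levels below are counts per 1000000 (CPM) of the TMM-scaled library size, with library 1 before library 2, and differences are log2 fold changes of LPS+IFNγ against control ± SE. A gene was called when edgeR's quasi-likelihood test, adjusted by Benjamini-Hochberg over all genes, gave an adjusted p under 0.05, and called beyond 2-fold when the same fit rejected a change of up to 2-fold. Of 13525 genes tested, 3700 were higher (27.4%) and 3648 lower (27.0%). Beyond 2-fold, 1371 genes were higher (10.1%) and 1481 lower (11%), and 0 of these had groups that overlapped. Over all genes tested, groups did not overlap in 83.2%. The median log2 fold change over all genes was −0.05. In 5058 genes (37.4%) the 95% interval of the change lay within 2-fold in both directions. The SE is the absolute log2 fold change divided by the square root of the F statistic of the quasi-likelihood test. The interval takes the TMM scaling as given, so it bounds the change under that scaling only.

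These calls rest on the scaling. The 1371 genes higher beyond 2-fold took 7.77% and 7.78% of the counts in control libraries and 40.4% and 39.7% in stimulated ones, and the 1481 lower genes went from 15.3% and 15.1% to 2.30% and 2.39%. TMM factors were 1.15 and 1.16 in control and 0.806 and 0.833 in stimulated libraries. With library size alone, the median gene moved by −0.50 on the log2 scale and 2048 genes were higher against 6170 lower, 24.9% of calls higher in place of 50.4%. With upper quartile factors 39.4% of calls were higher (2909 against 4467). List counts below are from TMM scaling, and they shift with it: of 62 lists, 41 had a median above 0 by TMM, and 16 of these were below 0 by library size alone and 8 with upper quartile factors. Medians or counts by library size alone are given beside the lists described whose median changed sign.

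**Figure D1:**
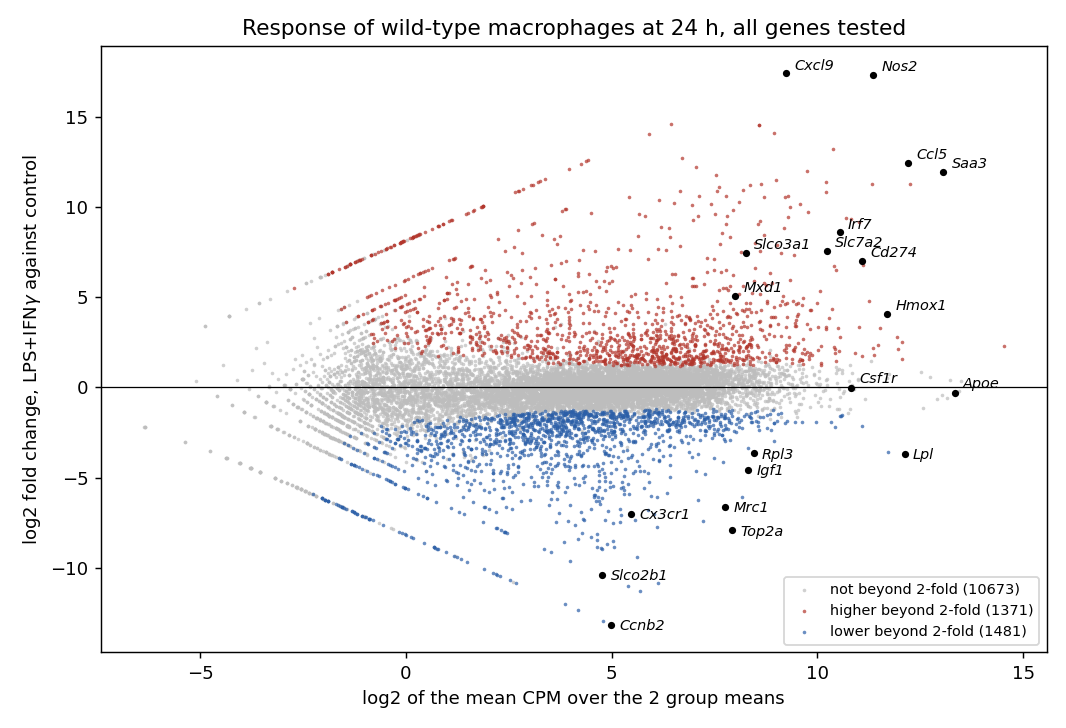
Log2 fold change of LPS+IFNγ against control (y) against the log2 mean CPM of the 2 group means (x) for the genes tested in wild-type libraries, with the 1371 genes higher beyond 2-fold in red, the 1481 lower in blue and selected genes in black. Cxcl9 and Nos2 sit at the top, Ccnb2 at the bottom, and Csf1r and Apoe beside 0; genes at 0 in both groups are not drawn, and diagonal streaks are genes with few or no counts in 1 group, whose fitted values depend on the prior count.

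Per kilobase of exon, the most abundant protein-coding messages changed their order. Ftl1, the ferritin light chain, led the controls at 9015 and 8831 CPM per kilobase, ahead of lysozyme Lyz2 at 7069 and 7288. After LPS+IFNγ, the ferritin heavy chain Fth1 led at 11243 and 11313 CPM per kilobase, followed by the chemokine Ccl5 at 9991 and 9681 and by B2m, the light chain of MHC class I, at 7935 and 7889. Ccl5 had averaged 1.74 CPM per kilobase in controls. The elongation factor Eef1a1 ranked sixth in controls at 2522 and 2461 CPM per kilobase and averaged 205 after stimulation. Ftl1, Lyz2, Fth1, B2m and Eef1a1 were picked by rank after their values were seen. Ferritin genes and Eef1a1 have many processed pseudogenes, so their counts are uncertain.

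The interferon-induced GTPases, which attack vacuoles of intracellular microbes, rose together: 21 of 21 were higher, each beyond 2-fold, with a median of 8.98. Gbp4 had 1 count in the 2 controls and was at 785 and 754 CPM after stimulation. Mx1, an antiviral GTPase, went from 0.583 and 0.246 to 1710.3 and 1713 CPM (11.98 ± 0.84, adjusted p = 3.44e-06), and Iigp1, which acts on parasite vacuoles, from 0.146 and 0.493 to 767 and 828 CPM (11.26 ± 0.63, adjusted p = 1.02e-06). Gbp2, whose promoter is printed after this paragraph, went from 5.3 and 6.06 to 3803 and 3452 CPM (9.32 ± 0.47, adjusted p = 5.71e-07), and Tgtp1 from 1 count in all to 224 and 197 CPM. Tgtp1 and the Gbp genes have near-identical copies, so the split between copies is uncertain.

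Promoters of 6 called genes are shown because their genes moved together in 2 sets, interferon and NF-κB targets that rose and mitotic genes that fell. Each run is 300 bases, from 250 before to 50 after the transcription start, from RefSeq on GRCm38.p6 and on the gene's strand. The files were made on GRCm39, and no coordinate was converted. Capitals mark matches on either strand to GAS (TTCNNNGAA), ISRE (AAANNGAAA), NF-κB (GGANTTTCC) or, in the last 2, CHR (TTTGAA), a motif of cell-cycle promoters. Only these letters were searched, so other spellings of the motifs stay unmarked. The marked matches do not overlap each other. For Irf1 the first of 2 promoters in the RefSeq table is shown, and the second held no GAS, ISRE or NF-κB letters. The Cxcl9 window, planned for printing, held none either and is not printed. All windows shown therefore hold a match, and they do not stand for the called genes.
Gbp2, chr3:142620413-142620712, plus strand, ISRE 59 bases before the start: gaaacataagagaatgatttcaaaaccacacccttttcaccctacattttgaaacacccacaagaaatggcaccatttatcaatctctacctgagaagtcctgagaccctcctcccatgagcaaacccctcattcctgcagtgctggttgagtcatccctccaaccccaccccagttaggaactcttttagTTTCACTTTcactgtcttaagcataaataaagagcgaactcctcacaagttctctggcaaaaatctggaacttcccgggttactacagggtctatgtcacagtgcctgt
Cxcl10, chr5:92348840-92349139, minus strand, ISRE 212 and NF-κB 158 bases before the start: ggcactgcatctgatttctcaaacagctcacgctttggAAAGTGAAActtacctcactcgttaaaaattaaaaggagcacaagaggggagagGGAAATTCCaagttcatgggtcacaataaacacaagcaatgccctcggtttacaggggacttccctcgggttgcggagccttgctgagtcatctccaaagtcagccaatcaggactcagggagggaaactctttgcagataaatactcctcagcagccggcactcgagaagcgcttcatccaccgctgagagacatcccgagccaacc
Icam1, chr9:21015690-21015989, plus strand, NF-κB 153 and GAS 42 bases before the start: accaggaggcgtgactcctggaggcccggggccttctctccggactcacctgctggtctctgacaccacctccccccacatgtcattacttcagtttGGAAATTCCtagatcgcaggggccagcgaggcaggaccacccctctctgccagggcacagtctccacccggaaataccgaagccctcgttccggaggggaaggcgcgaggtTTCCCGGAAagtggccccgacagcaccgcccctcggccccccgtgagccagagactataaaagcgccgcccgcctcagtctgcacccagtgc
Irf1, chr11:53769764-53770063, plus strand, GAS 90 bases before the start: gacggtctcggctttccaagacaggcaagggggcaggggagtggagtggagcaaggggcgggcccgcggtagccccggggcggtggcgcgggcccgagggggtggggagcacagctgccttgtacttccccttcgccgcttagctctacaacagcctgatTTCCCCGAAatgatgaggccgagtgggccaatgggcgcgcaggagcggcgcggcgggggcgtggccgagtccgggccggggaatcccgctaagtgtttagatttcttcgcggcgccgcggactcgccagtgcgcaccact
Ccnb2, chr9:70421505-70421804, minus strand, CHR 167 bases before and 4 after the start: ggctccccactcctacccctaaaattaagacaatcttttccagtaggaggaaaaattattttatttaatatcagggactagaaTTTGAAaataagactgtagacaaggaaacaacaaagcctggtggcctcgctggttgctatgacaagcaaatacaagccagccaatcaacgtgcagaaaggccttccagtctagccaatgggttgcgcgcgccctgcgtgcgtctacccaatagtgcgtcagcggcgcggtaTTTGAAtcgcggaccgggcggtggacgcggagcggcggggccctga
Top2a, chr11:99024140-99024439, minus strand, CHR 179 and 23 bases before the start: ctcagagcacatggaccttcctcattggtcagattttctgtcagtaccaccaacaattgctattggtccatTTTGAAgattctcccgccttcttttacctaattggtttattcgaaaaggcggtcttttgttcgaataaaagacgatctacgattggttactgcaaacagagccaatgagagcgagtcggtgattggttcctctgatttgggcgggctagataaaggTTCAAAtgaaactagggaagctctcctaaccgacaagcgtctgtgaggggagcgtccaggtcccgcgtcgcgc

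Across tested protein-coding genes with a RefSeq promoter, the ISRE letters were found in 9.91% of 9518, in 20.7% of the 921 higher beyond 2-fold and in 8.91% of the 1078 lower. All 11 GTPases with a promoter entry held them. The NF-κB letters were in 1.63%, 3.69% and 1.21% of the same sets, and the AP-1 letters TGANTCA in 6.47%, 11.2% and 6.31%. GAS letters differed less, at 8.33%, 11.3% and 7.51%. CHR letters were in 14.4% of all, 15.1% of the higher and 20.1% of the lower genes, and in 43 of 66 mitosis genes (65.2%). They were also in 53 of 252 genes higher over 16-fold and beyond 2-fold, a larger share than among the lower genes. Of the 11 GTPases, 5 held them, so CHR letters did not set the lower genes apart from the genes that rose most. The PU.1 letters GAGGAAGT were in 3.99%, 6.08% and 4.45%, and CACGTG in 11.8%, 9.99% and 12.4%. GAS, ISRE and PU.1 letters share GAA or GGAA and may overlap. Shares are descriptions without a test, a match is not shown to be a site, and the mitosis and GTPase sets and the CHR promoters were picked after the values were seen. The Cxcl9 window held no GAS, ISRE or NF-κB letters, and Nos2 has no entry in the table used. Because only these exact letters were searched, a window without them is not shown to lack a site.

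Transcription factors as a class were near all genes by TMM, with 151 of 565 tested higher (26.7%) and 127 lower (22.5%), beside 27.4% and 27.0% of all genes. Their median was −0.07, and by library size alone 78 were higher and 254 lower, but families moved apart. All 11 NF-κB and IκB genes were higher, with a median of 2.16, and 10 of 15 IRF and STAT genes were higher and 1 lower. The class is mostly numbered zinc-finger genes, of which 61 were higher and 73 lower of 332, shares of 18.4% and 22% that are under those of all genes.

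Among interferon regulators, Irf7, which drives type I interferon genes, was at 7.58 and 7.59 CPM in control and 3152 and 2779 CPM in stimulated libraries (8.61 ± 0.96, adjusted p = 5.57e-05). Stat2, which carries the signal of the type I interferon receptor, rose from 46.7 and 45.4 to 1181 and 1090.0 CPM (4.62 ± 0.32, adjusted p = 3.23e-06). Irf1, whose promoter is printed above, rose from 54.3 and 47.1 to 565 and 519 CPM (3.42 ± 0.32, adjusted p = 1.77e-05). In each of these 3 genes both stimulated libraries stood above both controls, where 83.2% of all tested genes had groups that did not overlap. Irf8, a macrophage lineage factor, was at 150.2 and 154 and then 122 and 119.5 CPM and was not called (adjusted p = 0.0994), and Irf3, the factor TLR3 and TLR4 activate by phosphorylation, was at 28.5 and 27.1 and then 25.6 and 31 CPM (adjusted p = 0.946).

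In the NF-κB family, the inhibitors rose with the subunits. Nfkbia and Nfkbie, which hold NF-κB in the cytoplasm, went from 62.2 and 52.3 to 769.9 and 682 CPM (3.66 ± 0.24, adjusted p = 2.56e-06) and from 15.9 and 17 to 215 and 229 CPM (3.75 ± 0.24, adjusted p = 2.25e-06). Bcl3, a nuclear IκB, was at 14 and 13.8 and then 105 and 101 CPM (2.88 ± 0.32, adjusted p = 5.82e-05). The subunits Nfkb2 (2.48 ± 0.23) and Relb (1.61 ± 0.25) of the slower branch of the pathway rose too, and Nfkbiz, needed for Il6 transcription, rose by 2.16 ± 0.43.

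Of 27 AP-1, ATF, BATF and CEBP genes, 13 were higher and 1 lower, with a median of 0.48 that turned to −0.02 by library size alone. Batf2, an interferon-induced partner of IRF1, went from 1.26 and 1.48 to 58.8 and 54.3 CPM (5.36 ± 0.28, adjusted p = 7.57e-07). Batf (3.60 ± 0.50), Creb5 (3.23 ± 0.20) and Fosl1 (3.80 ± 0.52) rose as well, as did Ddit3, the stress factor CHOP (2.45 ± 0.17). Cebpa, a factor of myeloid differentiation, was the member that fell, from 92.7 and 124 to 23.9 and 32.9 CPM (−1.93 ± 0.27, adjusted p = 0.000267).

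Of the MAF proteins, Maf, which helps to keep macrophages differentiated and out of cycle, rose from 234 and 265 to 501 and 519 CPM (1.03 ± 0.22, adjusted p = 0.00346), though not by library size alone (adjusted p = 0.0752). Small MAF proteins rose, with Maff at 3.07 ± 0.33 and Mafk at 1.84 ± 0.23. Among ETS factors, Spic, which directs red pulp macrophages, went from 1.94 and 1.63 to 41 and 41.2 CPM (4.52 ± 0.62, adjusted p = 0.000217), while Spi1, the lineage factor PU.1, rose from 201 and 241 to 414 and 445 CPM (0.96 ± 0.18, adjusted p = 0.00127).

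Egr2 and Pparg, both linked to alternative activation, fell beyond 2-fold. Egr2 was at 32.7 and 34.3 CPM in control and 0.545 and 1.08 CPM in stimulated libraries (−5.35 ± 0.43, adjusted p = 7.03e-06), and Pparg at 48.6 and 48.3 and then 1.84 and 2.85 CPM (−4.36 ± 0.23, adjusted p = 8e-07). Mef2c fell from 84.1 and 74.3 to 6.13 and 4.4 CPM (−3.91 ± 0.17, adjusted p = 3.55e-07). No stimulated library of these 3 genes came near a control. Nr1h3, the cholesterol sensor LXRα, rose from 34 and 27.8 to 117 and 123 CPM (1.95 ± 0.22, adjusted p = 5.38e-05), and Nr3c1, the glucocorticoid receptor, from 119 and 115 to 320.4 and 306 CPM (1.42 ± 0.12, adjusted p = 1.04e-05). Of 24 nuclear receptors, 7 were higher and 7 lower, close to the shares of all genes. Klf6 (1.57 ± 0.10) and Klf4 (1.80 ± 0.28) rose, and Runx3 (2.88 ± 0.36), Zeb1 (2.60 ± 0.39), Foxp4 (2.23 ± 0.16) and Nfat5 (1.68 ± 0.21) led the lineage list. The medians of the KLF, SP and EGR list and of the lineage list, 0.16 and 0.03, turned to −0.34 and −0.47 by library size alone.

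In the MYC network, Myc fell from 14.5 and 14.5 to 1.29 and 2.37 CPM (−2.98 ± 0.43, adjusted p = 0.000278), and Mxd1, which competes with MYC for the partner MAX and represses its targets, rose from 14.4 and 15.2 to 496 and 502 CPM (5.07 ± 0.25, adjusted p = 5.65e-07). Max itself rose by 1.47 ± 0.12, while Mxd3, a MXD protein of dividing cells, went from 8.75 and 6.11 CPM to 0 counts, at least 36.4-fold lower against 3 counts in the shallower library. The hypoxia factors also parted. Hif1a, which drives glycolytic genes, rose from 96.9 and 109 to 564 and 534 CPM (2.42 ± 0.22, adjusted p = 1.65e-05), and Epas1, which encodes HIF-2α, fell from 22 and 36.7 to 0.749 and 2.71 CPM (−4.08 ± 0.79, adjusted p = 0.00182).

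Of 12 clock genes, 5 were higher (41.7%) and 4 lower (33.3%), beside 27.4% and 27.0% of all genes. Nfil3, which represses the D-box targets of the clock, went from 7.78 and 8.62 to 55.4 and 54.4 CPM (2.74 ± 0.17, adjusted p = 1.82e-06), and Dbp, which activates the same targets, from 9.33 and 11.9 to 1.77 and 2.17 CPM (−2.42 ± 0.29, adjusted p = 9e-05). Per2 rose by 2.32 ± 0.36 and Per3 fell (−2.62 ± 0.40), and Clock was not called (0.16 ± 0.14).

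**Figure D2:**
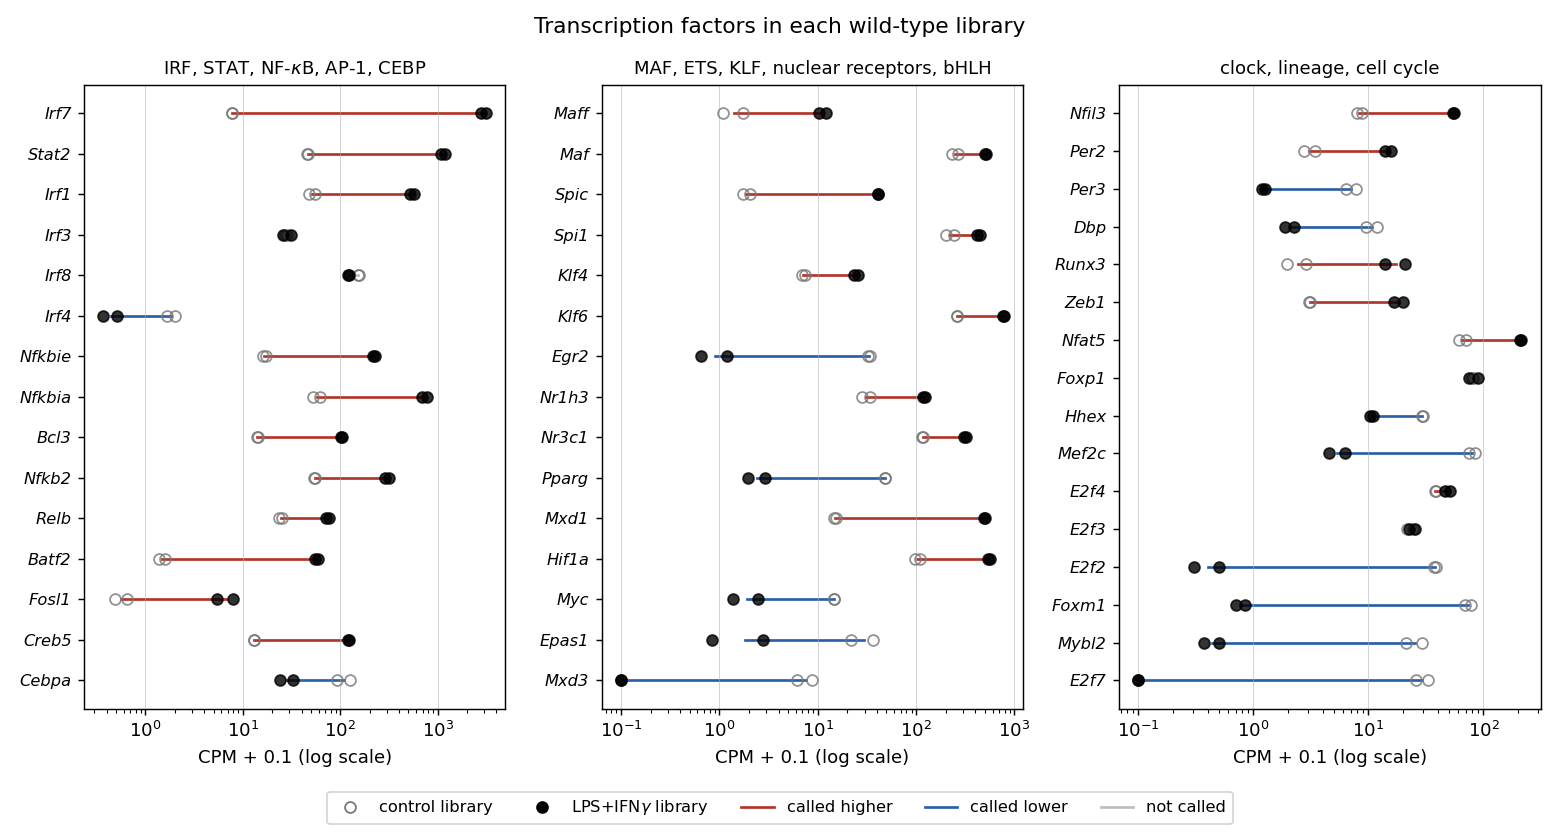
Level of 46 transcription factors in each wild-type library as CPM + 0.1 on a log axis, with open circles for the 2 control and filled circles for the 2 LPS+IFNγ libraries and a line joining the group means, red where the gene rose, blue where it fell and grey where it was not called. Irf7, Mxd1 and Batf2 shift right by over a decade, Egr2, Mef2c and Pparg shift left, and Irf3, Irf8 and Foxp1 keep both groups together.

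Surface receptors rose more often than genes at large: 164 of 355 tested were higher and 95 lower, with a median of 0.52 against −0.05 over all genes. By library size alone 133 were higher and 119 lower, with a median of 0.02 against −0.55 over all genes. Costimulatory and checkpoint receptors (20 higher and 5 lower of 30), cytokine receptor chains (29 and 11 of 51), the TNF receptor family (11 and 2 of 17) and paired receptors (21 and 7 of 33) rose more often than they fell. The cytokine receptor list, and so the class, also counts Il1rn, a soluble antagonist that rose and is given with the secreted proteins. Efferocytosis receptors, which bind dying cells, went the other way with 3 higher and 7 lower of 13.

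Pattern recognition receptors changed by class. Of 15 Toll-like and LPS receptor genes, 8 were higher and 0 lower. Tlr3, a sensor of double-stranded RNA, went from 11.6 and 13 to 103 and 97.4 CPM (3.03 ± 0.19, adjusted p = 1.85e-06), and Ly96, the MD-2 subunit that binds LPS for TLR4, from 7.39 and 8.28 to 23.6 and 23.2 CPM (1.58 ± 0.16, adjusted p = 2.65e-05). Tlr4 itself was at 129 and 129 and then 125 and 124 CPM and was not called (−0.05 ± 0.23, adjusted p = 0.876). Among C-type lectins, Clec4e, the mycobacterial glycolipid receptor Mincle, rose from 12.1 and 10.1 to 971 and 845 CPM (6.36 ± 0.71, adjusted p = 5.84e-05). The β-glucan receptor Clec7a fell from 377 and 408 to 22.1 and 22.6 CPM (−4.13 ± 0.19, adjusted p = 4.35e-07), and the mannose receptor Mrc1 from 407 and 456 to 4.7 and 4 CPM (−6.63 ± 0.42, adjusted p = 2.09e-06). Of 18 lectins tested, 8 were higher and 5 lower, and the median of 0.48 turned to −0.01 by library size alone.

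Scavenger receptors divided in the same way. Marco rose from 7.63 and 5.27 to 1289 and 936 CPM (7.43 ± 0.94, adjusted p = 0.000134) and Msr1 from 272 and 276 to 1129.8 and 1077 CPM (2.01 ± 0.16, adjusted p = 7.49e-06); both bind bacteria and modified lipoproteins. Cd36, a fatty acid and lipoprotein receptor, fell from 3609 and 3452 to 851 and 766 CPM (−2.13 ± 0.20, adjusted p = 2.21e-05), and the sorting receptor Sort1 from 218 and 216 to 17.5 and 19 CPM (−3.57 ± 0.16, adjusted p = 3.28e-07). Across the list 6 were higher (33.3%) and 8 lower (44.4%) of 18, beside 27.4% and 27.0% of all genes. Cd163, the haemoglobin scavenger receptor, was low in controls at 2.77 and 2.81 CPM and had 2 counts in all after stimulation, a ratio of 41.1 with a 95% counting interval of 11.1 to 343.

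Activating and inhibitory Fcγ receptors rose together: Fcgr1 from 87.7 and 86.6 to 1421 and 1306 CPM (3.97 ± 0.32, adjusted p = 7.67e-06), Fcgr4 by 3.62 ± 0.37 and the inhibitory Fcgr2b from 19.2 and 26.4 to 451 and 489 CPM (4.36 ± 0.20, adjusted p = 3.99e-07). Fcgrt, the receptor that recycles IgG, fell from 78.2 and 75.7 to 14.5 and 18 CPM (−2.24 ± 0.33). The complement receptor chains parted, with Itgam (CD11b) higher at 4614 and 4016 against 969.7 and 897 CPM and Itgax (CD11c) lower at 43.7 and 40.7 against 166 and 159 CPM (log2 fold changes 2.21 ± 0.18 and −1.95 ± 0.31).

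Of 16 chemokine and chemoattractant receptors, 8 were higher and 4 lower. Fpr1 and Fpr2, receptors for bacterial formyl peptides, went from 1.99 and 0.837 to 493 and 438 CPM (8.35 ± 0.89, adjusted p = 4.19e-05) and from 2.53 and 2.46 to 349 and 359.9 CPM (7.15 ± 0.74, adjusted p = 3.67e-05). Cx3cr1, the fractalkine receptor, fell from 105 and 71.7 to 0.749 and 0.61 CPM (−7.00 ± 0.51, adjusted p = 4.23e-06), and Cxcr4 from 134 and 126 to 23 and 18.2 CPM (−2.66 ± 0.54, adjusted p = 0.00248). Ccr2, a receptor that guides monocytes into tissue, was at 11.2 and 5.47 and then 2.72 and 1.83 CPM and was not called (−1.87 ± 1.07, adjusted p = 0.168).

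Signals to T cells rose steeply. Cd274, the checkpoint ligand PD-L1, went from 33.2 and 33.3 to 4512 and 4124 CPM (7.02 ± 0.22, adjusted p = 9.93e-08), Cd40 from 3.74 and 3.4 to 247 and 242 CPM (6.10 ± 0.21, adjusted p = 1.42e-07) and Cd86 from 3.74 and 5.07 to 138 and 129 CPM (4.92 ± 0.40, adjusted p = 7.56e-06). Cd69 (8.82 ± 0.47) and the NAD hydrolase Cd38 (6.63 ± 0.46) rose with them. Cd80 rose from 2.38 and 2.07 to 8.86 and 8.81 CPM (1.99 ± 0.45, adjusted p = 0.00443). Activating and inhibitory ligands rose in the same libraries, and Cd200r1, an inhibitory receptor, fell from 81.1 and 85.2 to 24.7 and 27.7 CPM (−1.67 ± 0.20, adjusted p = 0.000105).

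Among cytokine and death receptors, Il15ra, which presents IL-15 to lymphocytes, went from 2.43 and 1.97 to 185 and 167 CPM (6.32 ± 0.20, adjusted p = 9.93e-08), and Il4ra from 84.1 and 74.8 to 739 and 704 CPM (3.18 ± 0.19, adjusted p = 1.55e-06). Tnfrsf1b, the second TNF receptor, rose from 381 and 369.7 to 3902 and 3626 CPM (3.33 ± 0.16, adjusted p = 4.44e-07), and Fas from 3.65 and 3.2 to 40.5 and 40.2 CPM (3.56 ± 0.33, adjusted p = 1.76e-05). Ifngr1, the ligand-binding chain for IFNγ, fell from 185 and 175 to 100.3 and 84.4 CPM (−0.96 ± 0.15, adjusted p = 0.000394), and Lifr from 18.9 and 19.7 to 1.02 and 1.15 CPM (−4.14 ± 0.50, adjusted p = 9.32e-05). Csf1r, the M-CSF receptor on which these cells depend, stayed among the uncalled genes at 1891 and 1812 and then 1844 and 1728 CPM (−0.05 ± 0.22, adjusted p = 0.854).

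Paired receptors of the TREM and CD300 families split within families. Trem1 (5.18 ± 0.79), Trem3 (5.99 ± 0.56) and Cd300lf (6.48 ± 0.29) rose from under 1 CPM in both controls. Trem2, a lipid and dying-cell receptor, fell from 598 and 565 to 55.8 and 56.5 CPM (−3.37 ± 0.29, adjusted p = 1.23e-05), and Cd300a and Cd300lb fell (−2.00 ± 0.13 and −2.25 ± 0.25). Siglec1, the sialoadhesin of interferon-exposed macrophages, rose from 119.9 and 119 to 1360.1 and 1219 CPM (3.43 ± 0.57, adjusted p = 0.000752). Mertk, a receptor tyrosine kinase for dying cells, rose from 119 and 117 to 321 and 351 CPM (1.51 ± 0.19, adjusted p = 0.000112) while its bridging ligand Gas6 fell (given with the secreted proteins), and Itgb5 and Stab2 of the same list fell (−2.51 ± 0.15 and −4.88 ± 0.86).

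Among adhesion molecules, Icam1 went from 32.6 and 29.1 to 846 and 846 CPM (4.78 ± 0.56, adjusted p = 7.75e-05) and Itgal, the chain of LFA-1 that binds ICAM-1, from 30.2 and 28.8 to 534 and 468 CPM (4.09 ± 0.40, adjusted p = 2.49e-05). Both partners of this contact rose in these cultures. Cadm1 (−3.67 ± 0.15), Cd9 (−2.97 ± 0.24) and the laminin receptor chain Itga6 (−2.92 ± 0.21) fell. Of 36 genes on the list, 14 were higher and 12 lower, and its median of 0.17 turned to −0.33 by library size alone.

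Growth factor and guidance receptors diverged too. Met, the receptor of hepatocyte growth factor, rose from 11.3 and 11.2 to 179 and 155 CPM (3.89 ± 0.15, adjusted p = 2.12e-07) and Igf1r fell (−1.51 ± 0.21). Nrp2 rose from 420.0 and 425 to 1456 and 1452 CPM (1.78 ± 0.15, adjusted p = 8.9e-06), while the related Nrp1 fell from 304 and 307 to 44.7 and 42.9 CPM (−2.80 ± 0.14, adjusted p = 5.71e-07) and Plxnc1, a semaphorin receptor, from 162 and 165 to 8.72 and 8.06 CPM (−4.28 ± 0.24, adjusted p = 9.48e-07). The guidance list had 6 higher (27.3%) and 9 lower (40.9%) of 22, beside 27.4% and 27.0% of all genes. Its median of 0.27 turned to −0.21 by library size alone. Of 61 G protein-coupled receptors, 23 were higher (37.7%) and 20 lower (32.8%), and their median of 0.33 turned to −0.17 by library size alone. Adora2a, an adenosine receptor that dampens inflammation, went from 0.535 and 0.788 to 71.5 and 64.3 CPM (6.67 ± 0.30, adjusted p = 3.92e-07), and Gpr84, a receptor for medium-chain fatty acids, rose by 4.17 ± 0.33. S1pr1, the sphingosine 1-phosphate receptor of cell egress, fell from 74.8 and 77.3 to 6.81 and 12.3 CPM (−2.99 ± 0.23, adjusted p = 5.45e-06). Adgre1, the F4/80 antigen, rose from 1372 and 1304 to 3868 and 3616 CPM (1.48 ± 0.25, adjusted p = 0.000768).

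**Figure D3:**
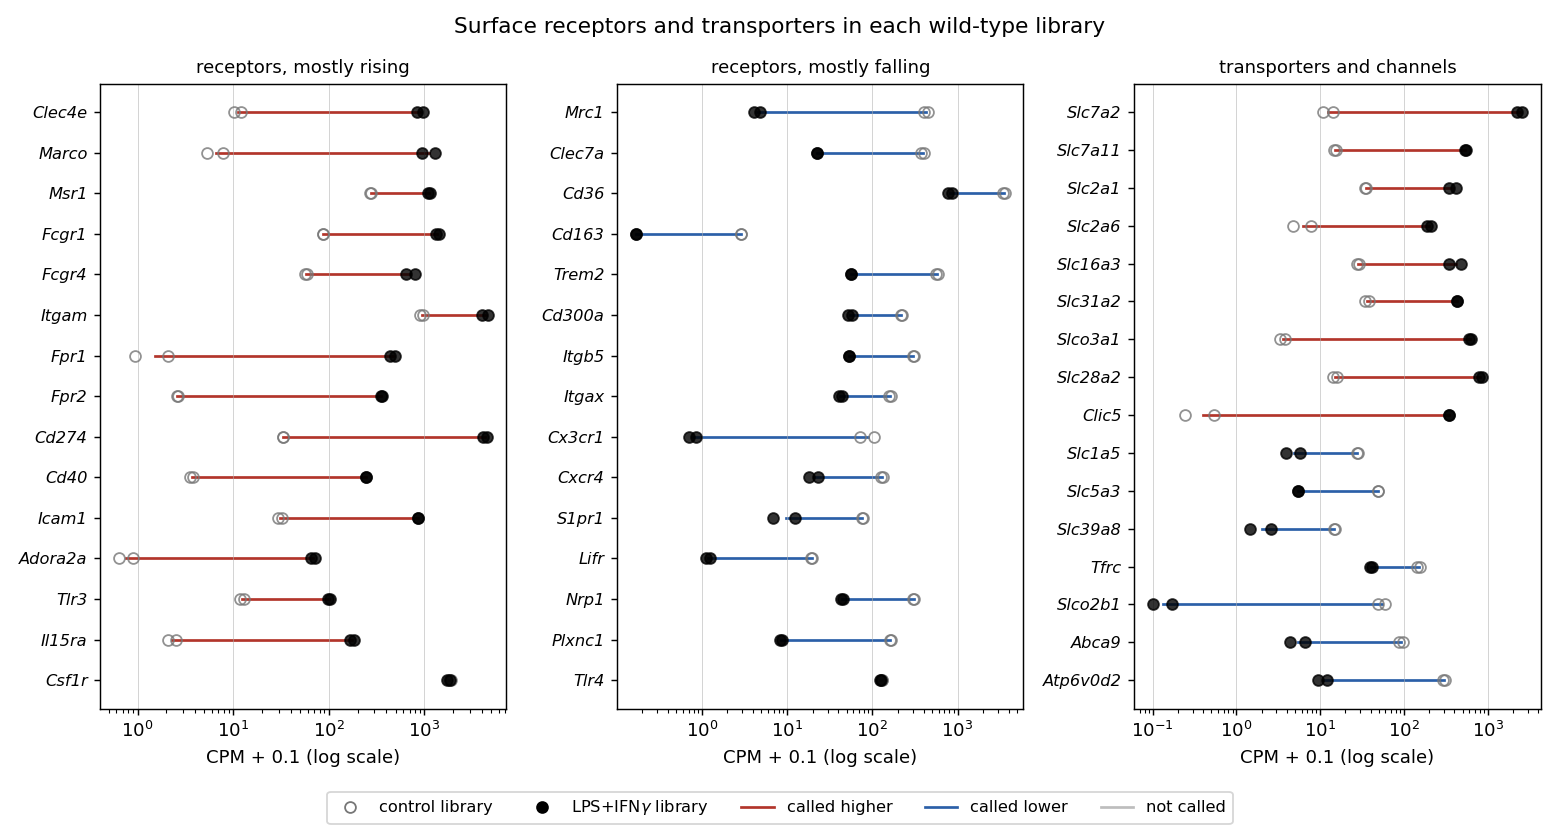
Level of 46 surface receptors, transporters and channels in each wild-type library as CPM + 0.1 on a log axis, drawn as open circles for control and filled circles for LPS+IFNγ libraries with a line between group means, red for genes that rose, blue for genes that fell and grey for genes not called. Cd274, Fpr1 and Slc7a2 shift right, Mrc1, Cx3cr1 and Slco2b1 shift left, and Csf1r and Tlr4 stay in place.

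Of 308 transporters and channels tested, 103 were higher (33.4%) and 94 lower (30.5%) by TMM, beside 27.4% and 27.0% of all genes, with a median of 0.05. By library size alone 59 were higher and 144 lower, with a median of −0.43, and with upper quartile factors 81 and 109, with a median of −0.12. Single carriers held very large changes. Slc7a2, which imports arginine for nitric oxide synthesis, went from 14.1 and 10.7 to 2567 and 2230.5 CPM (7.59 ± 0.62, adjusted p = 8.1e-06), and Slc7a1, the other main arginine carrier, fell from 37.5 and 37.3 to 15.5 and 17.5 CPM (−1.18 ± 0.27, adjusted p = 0.00473). Slc7a11, the cystine importer that feeds glutathione synthesis, rose from 14.3 and 15.4 to 545 and 528 CPM (5.17 ± 0.32, adjusted p = 1.68e-06), and its partner chain Slc3a2 by 1.71 ± 0.30. Glutamine carrier Slc1a5 fell from 27.4 and 27.9 to 3.81 and 5.62 CPM (−2.55 ± 0.24, adjusted p = 1.96e-05). Of 24 amino acid carriers in all, 9 were higher and 7 lower, and their median of 0.21 turned to −0.29 by library size alone.

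Of 18 sugar and monocarboxylate carriers, 7 were higher and 4 lower, and their median of 0.22 turned to −0.28 by library size alone. Slc2a1, the glucose importer GLUT1, went from 34.5 and 35.4 to 421 and 342 CPM (3.45 ± 0.30, adjusted p = 1.25e-05), the lysosomal Slc2a6 from 7.68 and 4.63 to 209.9 and 189 CPM (5.02 ± 0.41, adjusted p = 7.72e-06) and the lactate exporter Slc16a3 from 28.8 and 27.4 to 482 and 349 CPM (3.89 ± 0.27, adjusted p = 3.62e-06). The myo-inositol carrier Slc5a3 fell from 48.8 and 48.8 to 5.38 and 5.29 CPM (−3.19 ± 0.18, adjusted p = 9.65e-07).

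Metal carriers had 17 higher and 11 lower of 34, with a median of 0.45 that turned to −0.05 by library size alone. The copper carriers Slc31a2 and Slc31a1 rose from 38 and 34.2 to 432 and 424 CPM (3.57 ± 0.19, adjusted p = 8.49e-07) and from 69.4 and 69.7 to 403 and 375 CPM (2.48 ± 0.14, adjusted p = 1.05e-06). Slc11a1, the phagosomal metal pump NRAMP1, rose from 421 and 398 to 1224 and 1123 CPM (1.52 ± 0.12, adjusted p = 5.99e-06). For iron, the transferrin receptor Tfrc fell from 142 and 157 to 39.2 and 41.7 CPM (−1.88 ± 0.25, adjusted p = 0.000187), beside the rise of Fth1 given above. Zinc importers Slc39a8 and Slc39a10 fell (−2.91 ± 0.30 and −2.64 ± 0.18).

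Organic ion, nucleoside and peptide carriers moved far in both directions, and the median of the nucleoside, vitamin and organic ion carriers, 0.13, turned to −0.37 by library size alone. Slco3a1 rose from 3.69 and 3.2 to 625 and 592 CPM (7.46 ± 0.40, adjusted p = 8e-07), the nucleoside importer Slc28a2 from 15.7 and 14 to 847 and 788 CPM (5.78 ± 0.26, adjusted p = 3.99e-07) and the endosomal peptide carrier Slc15a3 from 136 and 138 to 1694 and 1479 CPM (3.53 ± 0.17, adjusted p = 4.92e-07). Slco2b1, of the same family as Slco3a1, fell from 59.8 and 49.5 CPM to 1 count in both stimulated libraries together, a ratio of 1610 with a 95% counting interval of 289 to 63610. The nucleoside carrier Slc29a1 fell from 99.8 and 92.5 to 17 and 14.5 CPM (−2.61 ± 0.18, adjusted p = 2.87e-06) as Slc28a2 rose.

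ABC transporters fell more often than they rose, with 7 higher and 14 lower of 36 and a median of 0.04 that turned to −0.46 by library size alone. The peptide pumps Tap1 and Tap2, which load MHC class I, rose from 42.3 and 42.5 to 993 and 899 CPM (4.48 ± 0.30, adjusted p = 3.02e-06) and by 3.13 ± 0.34, and the cholesterol exporter Abca1 from 183 and 187 to 606 and 549 CPM (1.64 ± 0.24, adjusted p = 0.000283). Abcb1b, a drug efflux pump, fell from 56.1 and 50.2 to 3.41 and 5.29 CPM (−3.61 ± 0.30, adjusted p = 8.6e-06), and Abca9 from 87.8 and 96.9 to 4.29 and 6.51 CPM (−4.09 ± 0.44, adjusted p = 4.33e-05). Among ion channels and related proteins (median 0.015, and −0.46 by library size alone), Clic5 went from 0.146 and 0.443 to 345 and 341 CPM (10.15 ± 0.46, adjusted p = 3.92e-07) and the volume-regulated channel subunit Lrrc8c rose by 3.19 ± 0.22, while the potassium channel Kcnj2 fell (−1.84 ± 0.26). The purinergic channel P2rx7 was not called (−0.43 ± 0.23).

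Of 18 vacuolar proton pump genes, 6 were higher (33.3%) and 4 lower (22.2%), beside 27.4% and 27.0% of all genes. By library size alone 1 was higher and 9 lower. Atp6v0d2, a subunit of osteoclasts and resting macrophages, fell from 289 and 309 to 9.26 and 12 CPM (−4.81 ± 0.56, adjusted p = 7.81e-05), and Atp6v0a1 from 286 and 291 to 81.7 and 80.4 CPM (−1.83 ± 0.17, adjusted p = 1.62e-05). Its alternative subunit Atp6v0a2 rose from 52 and 48.2 to 135 and 132 CPM (1.42 ± 0.13, adjusted p = 1.91e-05).

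**Figure D4:**
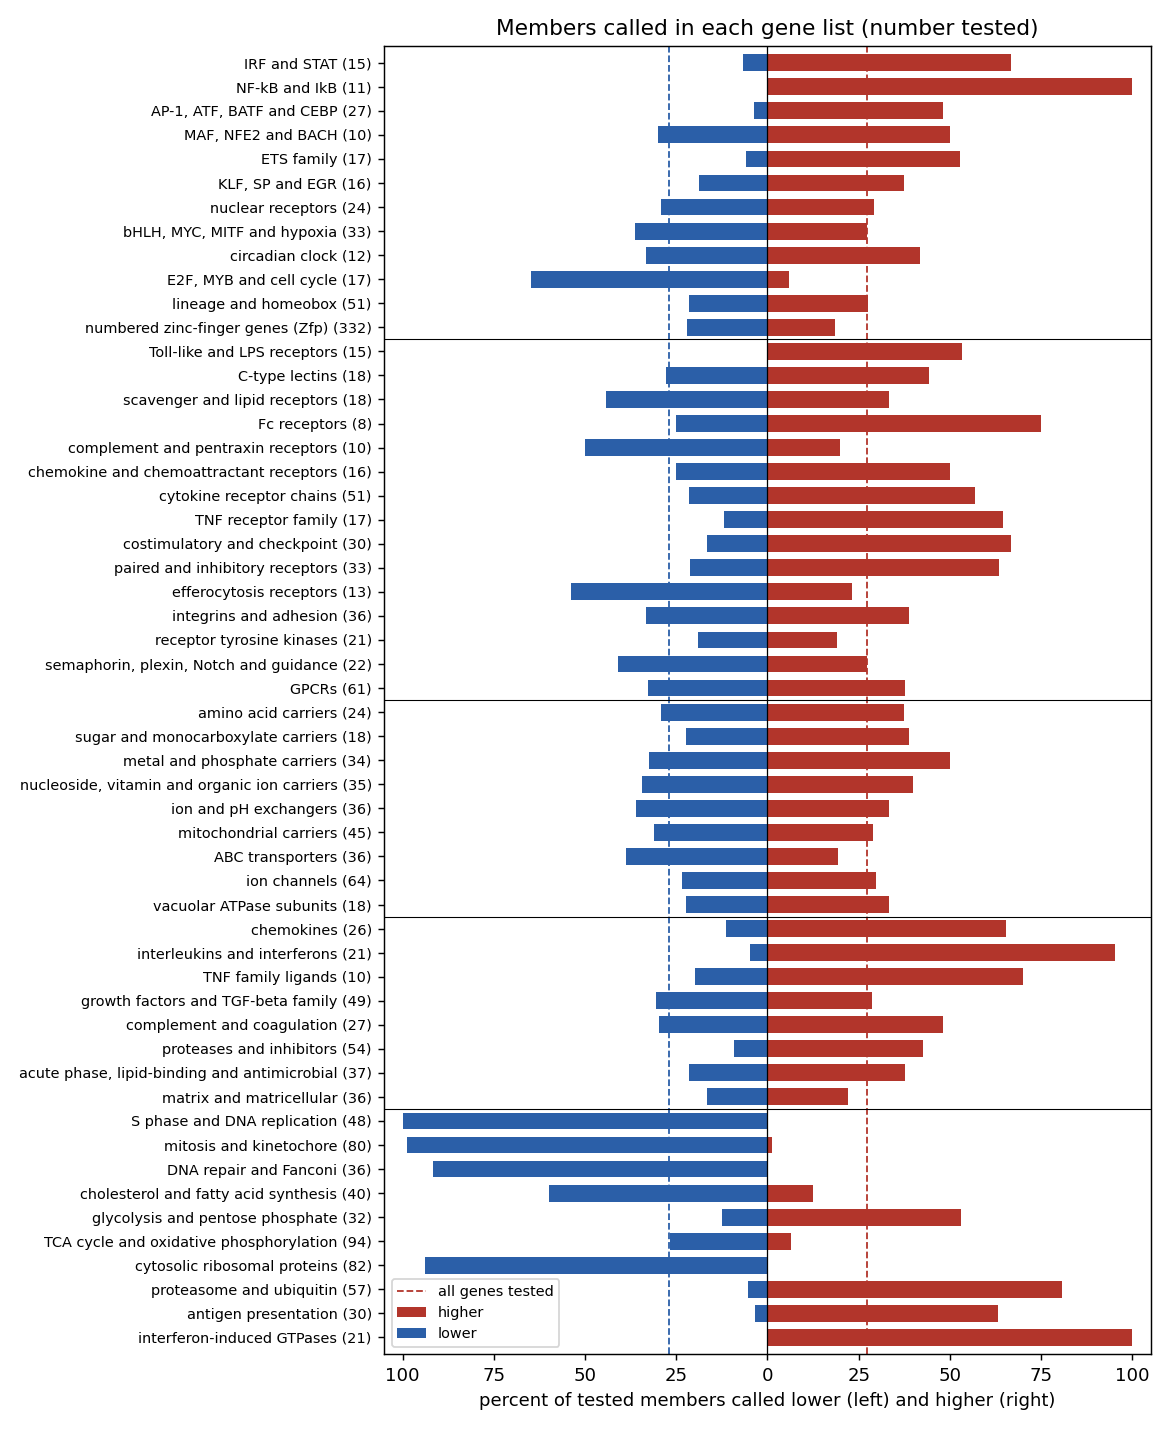
Percent of the tested members of each gene list called lower (blue bars, left) and higher (red bars, right) in wild-type cells, with the number tested beside each name, thin lines between the classes and dashed lines at the shares over all genes, 27.0% lower and 27.4% higher. NF-κB and IκB genes, interleukins and interferons and interferon-induced GTPases fill the right side, and S phase, mitosis, DNA repair and cytosolic ribosomal protein genes the left.

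Secreted proteins had a median change of 1.05, above the medians of the 3 classes already described, with 116 of 260 tested higher and 48 lower. Interleukins and interferons had 20 of 21 higher and a median of 6.71, and chemokines 17 of 26 higher and 3 lower with a median of 3.64. The chemokines CXCL9, CXCL10 and CXCL11 call CXCR3-bearing T cells. Cxcl10 went from 0.389 and 0.148 to 2761 and 2598 CPM (13.25 ± 0.71, adjusted p = 8.52e-07), and Cxcl11 from 0 counts to 182 and 166 CPM, at least 1175-fold higher. Ccl5 rose from 1.17 and 2.17 to 9591 and 9293 CPM (12.46 ± 1.16, adjusted p = 1.79e-05) and the monocyte chemokine Ccl2 from 2.87 and 3.4 to 607 and 528 CPM (7.50 ± 0.21, adjusted p = 8.4e-08). Ccl6 fell from 440.0 and 445 to 80.9 and 77.7 CPM (−2.48 ± 0.33, adjusted p = 0.000164), and Ccl9 was not called (−0.75 ± 0.32, adjusted p = 0.0734). The Cxcl11 entry is annotated as a polymorphic pseudogene, a class for genes that are defective in some strains.

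Inflammatory and restraining cytokines rose together. Il1b went from 0.292 and 0.788 to 527 and 464 CPM (9.83 ± 1.13, adjusted p = 6.86e-05) and Il1a from 1.07 and 0.542 to 445 and 434 CPM (9.08 ± 1.01, adjusted p = 5.6e-05), and their soluble antagonist Il1rn from 24.8 and 26.3 to 2847 and 2494 CPM (6.71 ± 0.44, adjusted p = 2.57e-06). Agonists and antagonist were all far above their control levels in both stimulated libraries. Il6 had 0 counts in control and was at 16.4 and 25.2 CPM, at least 141-fold higher. Il27 (6.89 ± 0.58), the anti-inflammatory Il10 (4.56 ± 0.48) and Il18 (2.06 ± 0.31) rose as well, with Il10 going from 1.56 and 2.41 to 46 and 47.8 CPM. Tnf rose from 10.5 and 10.4 to 147 and 129 CPM (3.73 ± 0.35, adjusted p = 1.94e-05), and Tnfsf10, the death ligand TRAIL, from 0.243 and 0.64 to 89.1 and 85.6 CPM (7.61 ± 0.67, adjusted p = 1.36e-05). Tnfsf13, the B cell factor APRIL, fell from 43 and 43.4 to 4.22 and 4.13 CPM (−3.37 ± 0.47, adjusted p = 0.000248).

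Growth factors had 14 higher and 15 lower of 49, shares of 28.6% and 30.6% that are close to the 27.4% and 27.0% of all genes. Igf1, a trophic factor of resting macrophages, fell from 626 and 603 to 26.4 and 25.8 CPM (−4.56 ± 0.17, adjusted p = 1.86e-07), Gas6, the ligand that bridges dying cells to MERTK, from 237 and 277 to 7.97 and 13 CPM (−4.61 ± 0.27, adjusted p = 1.22e-06) and Hgf from 16.2 and 18.3 to 3.75 and 3.86 CPM (−2.18 ± 0.21, adjusted p = 2.05e-05). Receptors Mertk and Met rose while these ligands fell. Vegfa rose from 12.3 and 16.8 to 58 and 62.1 CPM (2.04 ± 0.21, adjusted p = 3.35e-05). Angptl2 fell (−4.14 ± 0.38).

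Complement genes moved in both directions. Cfb, the alternative pathway protease, went from 0.583 and 1.18 to 2527 and 2240.2 CPM (11.39 ± 1.40, adjusted p = 0.000107) and C3 from 40.8 and 38.5 to 4661 and 4114 CPM (6.79 ± 0.98, adjusted p = 0.000291). Over the complement and coagulation list 13 were higher (48.1%) and 8 lower (29.6%) of 27, beside 27.4% and 27.0% of all genes. Plau, the urokinase gene, was lower (−2.30 ± 0.27) and Procr, the protein C receptor, higher (5.54 ± 0.46).

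Of 37 acute phase, lipid-binding and antimicrobial genes, 14 were higher and 8 lower. Saa3, the macrophage serum amyloid A, went from 5.2 and 3.35 to 17902 and 16339 CPM (11.96 ± 1.59, adjusted p = 0.000181), and Lcn2, which binds bacterial siderophores, from 0.729 and 0.837 to 1398 and 1118 CPM (10.64 ± 1.21, adjusted p = 6.48e-05). Apoe, the lipid carrier, was at 11244 and 11793 and then 8936 and 9488 CPM and was not called (−0.32 ± 0.30, adjusted p = 0.385). Lipoprotein lipase, Lpl, fell from 8382 and 8131 to 663 and 618 CPM (−3.69 ± 0.23, adjusted p = 1.89e-06), and Selenop, a selenium carrier, from 1522 and 1639 to 413 and 408 CPM (−1.94 ± 0.28, adjusted p = 0.000303). Both fell from a high control level.

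Proteases and inhibitors had 23 higher and 5 lower of 54. Slpi, a secreted leukocyte protease inhibitor, went from 0.68 and 0.69 to 136 and 143 CPM (7.66 ± 0.62, adjusted p = 8.17e-06), and the membrane metalloproteinase Mmp14 from 13.9 and 20.9 to 437 and 464 CPM (4.69 ± 0.62, adjusted p = 0.000172). The macrophage elastase Mmp12 fell from 2288 and 2243 to 531 and 475 CPM (−2.17 ± 0.44, adjusted p = 0.00238), and Mmp9 was not called (−0.42 ± 0.55, adjusted p = 0.548). Timp1 rose by 4.13 ± 0.58 and Timp2 fell (−2.49 ± 0.49). Serpina3f and Serpina3g rose from under 1 CPM, but these genes belong to a cluster of near-identical copies. Of matrix genes, 8 were higher and 6 lower of 36, shares of 22.2% and 16.7% that are under those of all genes. Thbs1, thrombospondin 1, went from 22.7 and 80.5 to 2083 and 2074 CPM (5.33 ± 1.16, adjusted p = 0.00352), and Srgn, a granule proteoglycan, from 81.8 and 71.9 to 1139 and 1145 CPM (3.89 ± 0.16, adjusted p = 2.95e-07). Control Thbs1 was higher in library 2, which also held more stromal markers, as was fibronectin Fn1 at 14.7 and 56.7 and then 14 and 42.4 CPM (not called, −0.34 ± 0.93, adjusted p = 0.781), and the part of stromal cells in these values was not tested.

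Enzymes of arginine and prostanoid metabolism changed by isoform. Arg1 and Nos2 compete for arginine and both rose: Arg1 went from 0.0486 and 0.493 to 498 and 383 CPM (10.64 ± 0.88, adjusted p = 8.62e-06), beside Nos2 at 5711 and 4789.8 CPM. Ass1, which recycles citrulline to arginine, went from 3.06 and 4.19 to 261 and 232 CPM (6.09 ± 0.54, adjusted p = 1.29e-05), and Gch1, which makes the cofactor of Nos2, from 9.38 and 14.4 to 66.6 and 75.8 CPM (2.58 ± 0.22, adjusted p = 1.21e-05). Acod1, which makes itaconate, rose from 2.38 and 1.72 to 5454 and 4903 CPM (11.29 ± 1.45, adjusted p = 0.000142). Ptgs2, the inducible cyclooxygenase, went from 0.194 and 0.345 to 690.1 and 636 CPM (11.23 ± 0.81, adjusted p = 4.1e-06), while the constitutive Ptgs1 fell from 177 and 156 to 4.84 and 5.83 CPM (−4.96 ± 0.38, adjusted p = 5.33e-06). Hpgd, which breaks prostaglandins down, fell (−7.43 ± 0.55) and Ptges, which makes PGE2, rose (8.54 ± 0.40). Hmox1, which degrades haem, rose from 368 and 370.0 to 6310.3 and 6238 CPM (4.09 ± 0.30, adjusted p = 4.79e-06).

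Of 32 glycolysis and pentose phosphate genes, 17 were higher and 4 lower. Pfkfb3, which makes the activator of phosphofructokinase, went from 31.4 and 30.1 to 2913 and 2602 CPM (6.49 ± 0.24, adjusted p = 1.68e-07), and Pgk1 rose by 2.26 ± 0.19. Of 94 TCA cycle and oxidative phosphorylation genes, 6 were higher (6.4%) and 25 lower (26.6%), with a median of −0.13. Over all genes 27.4% were higher and 27.0% lower, so few of the list rose and the share that fell was that of all genes. By library size alone 1 was higher and 73 lower, where 2048 of all 13525 genes were higher and 6170 lower. The isocitrate dehydrogenase genes Idh2 (−3.10 ± 0.14), Idh1 (−1.82 ± 0.16) and Idh3a (−1.46 ± 0.16) were among those that fell. Fatty acid synthesis fell at Fasn, from 88.5 and 81.7 to 10.5 and 10.4 CPM (−3.02 ± 0.23, adjusted p = 6.04e-06), Fads1 (−3.13 ± 0.20) and Elovl6 (−5.61 ± 0.47), and 24 of 40 cholesterol and fatty acid genes were lower and 5 higher. Acsl1, which activates fatty acids, rose from 46.1 and 42.8 to 1009 and 1068 CPM (4.55 ± 0.17, adjusted p = 1.52e-07).

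Of 30 antigen presentation genes, 19 were higher and 1 lower, with a median of 2.74, and of 57 proteasome and ubiquitin genes 46 were higher and 3 lower (24 and 6 by library size alone). The class I gene H2-T23 went from 107 and 108 to 1248 and 1331 CPM (3.59 ± 0.30, adjusted p = 9.93e-06), and H2-Q4 from 34.9 and 31.6 to 1116 and 1116 CPM (5.07 ± 0.31), though class I genes share sequence and their split is uncertain. Isg15, a ubiquitin-like protein, rose from 1.94 and 2.76 to 840.0 and 836 CPM (8.47 ± 0.76, adjusted p = 1.45e-05), and Usp18, which removes it and blocks interferon receptor signalling, from 1.22 and 1.43 to 791 and 777 CPM (9.20 ± 0.86, adjusted p = 1.85e-05). Other brakes on the response rose with it, 26 of 38 feedback inhibitors and ubiquitin editors being higher and 6 lower. Socs3 went from 1.02 and 1.82 to 772 and 728 CPM (9.04 ± 0.66, adjusted p = 4.46e-06), Socs1 from 0.486 and 0.69 to 45.2 and 79.5 CPM (6.71 ± 0.41, adjusted p = 1.65e-06) and the NF-κB inhibitor Tnfaip3 from 24.7 and 28.1 to 295 and 293 CPM (3.48 ± 0.33, adjusted p = 1.93e-05). Zbp1 (7.97 ± 0.70), Casp4 (3.96 ± 0.28) and the death inhibitor Cflar (3.72 ± 0.16) were among the 24 of 38 cell death genes that were higher.

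The falling genes were led by cell division. All 48 S phase and replication genes were lower, 79 of 80 mitosis and kinetochore genes were lower, and 33 of 36 DNA repair genes were lower with 0 higher, at medians of −2.63, −5.74 and −2.89. S phase and mitosis genes together took 1.12% and 1.07% of the counts in control libraries and 0.0858% and 0.0865% in stimulated ones. Mki67, the proliferation antigen, fell from 592 and 547 to 7.7 and 8.88 CPM (−6.10 ± 0.41, adjusted p = 3.1e-06), and Top2a, the topoisomerase of dividing cells, from 492 and 484 to 2.38 and 1.63 CPM (−7.92 ± 0.35, adjusted p = 3.31e-07). Ccnb2, a mitotic cyclin, was at 65.8 and 61.5 CPM in control and had 0 counts in both stimulated libraries, at least 311-fold lower. Spag5 (at least 270-fold lower) and the cohesin acetyltransferase Esco2 (at least 177-fold lower) were likewise at 0 after stimulation. Ccna2, cyclin A2, fell from 5746 counts to 2, a ratio of 2069 with a 95% counting interval of 573 to 17091. Pttg1, securin, was the mitosis gene that rose, from 8.31 and 8.67 to 32.1 and 26.2 CPM (1.78 ± 0.21, adjusted p = 8.7e-05).

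Genes of replication fell by differing amounts. The replication helicase gene Mcm5 fell from 144 and 126 to 8.99 and 7.72 CPM (−4.01 ± 0.17, adjusted p = 2.95e-07), and Pole, which encodes the leading-strand polymerase, from 52 and 48.6 to 0.681 and 0.813 CPM (−6.06 ± 0.15, adjusted p = 8.4e-08). Of enzymes that supply nucleotides, Rrm2 fell from 149 and 127 to 0.341 and 0.949 CPM (−7.72 ± 0.41, adjusted p = 8e-07) and Tk1 from 102 and 87.8 to 0.681 and 0.474 CPM (−7.34 ± 0.29, adjusted p = 2.12e-07). The regulators followed: 11 of 17 E2F, MYB and cell cycle factors were lower and 1 higher. Foxm1, which drives mitotic genes, fell from 77.8 and 69.2 to 0.749 and 0.61 CPM (−6.74 ± 0.42, adjusted p = 1.89e-06), E2f2 from 38.6 and 36.9 to 0.204 and 0.407 CPM (−6.92 ± 0.30, adjusted p = 3.1e-07) and E2f7 from 32.8 and 25.6 CPM to 0 counts, at least 143-fold lower. Both control libraries held these transcripts, and both stimulated libraries had traces of them or none.

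Ribosomal protein genes fell as a block. Of 82 cytosolic ones, 77 were lower and 0 higher, 65 of them beyond 2-fold, with a median of −1.83, and their share of counts went from 2.96% and 2.90% to 0.629% and 0.650%. Rpl3 fell from 665 and 637 to 50.6 and 52.5 CPM (−3.66 ± 0.28, adjusted p = 5.4e-06), Rps7 from 360.0 and 344 to 54.7 and 58.6 CPM (−2.64 ± 0.25, adjusted p = 2.03e-05) and Rpl10a from 161 and 157 to 12.2 and 11.7 CPM (−3.73 ± 0.32, adjusted p = 1.08e-05). Rps24 was not called (−0.20 ± 0.15). Mitochondrial ribosomal proteins, made from other genes, had 8 higher and 19 lower of 75 and a median of −0.14. Cytosolic ribosomal protein genes have many processed pseudogenes that can share their reads, so the count of each is uncertain, and protein was not measured. They kept their direction under the 4 scalings, with medians of −1.83 by TMM and −2.33 by library size alone.

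Falling genes with high control levels that have been given with their classes include Lpl, Cd36, Mmp12, Selenop, Igf1, Trem2 and Mrc1. Of 53 lysosomal hydrolase and membrane protein genes, 14 were higher (26.4%) and 20 lower (37.7%), beside 27.4% and 27.0% of all genes. Galc fell from 249 and 265 to 48.2 and 52.9 CPM (−2.35 ± 0.17, adjusted p = 4.46e-06), and Npc2, which moves cholesterol out of lysosomes, rose from 807 and 802 to 3107 and 2972 CPM (1.92 ± 0.16, adjusted p = 1.09e-05). The autophagy adaptor Sqstm1 rose by 2.28 ± 0.15. Actin and podosome genes had 10 higher and 12 lower of 42 (23.8% and 28.6%), near the shares of all genes. Their median of 0.08 turned to −0.42 by library size alone, and Actn1 was lower (−2.69 ± 0.37).

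The same stimulus was given to KO cells, whose libraries are all separate from the wild-type ones. Of 5 sex markers (Xist and genes of the Y chromosome), 4 had 0 counts in the 4 wild-type libraries compared. All 5 passed the low-count filter over the 12 libraries, so other libraries of the series held them. Whether wild-type and KO cells differ in sex was not tested. In KO cells 3676 genes were higher (27.2%) and 3527 lower (26.1%). Of the wild-type genes called higher, 3205 were also higher in KO cells, 86.6% of the wild-type and 87.2% of the KO list. Of those called lower, 3058 were shared, 83.8% and 86.7% of the lists, and 1 gene was called in opposite directions. Of the genes called beyond 2-fold in wild type, 1369 of the 1371 higher and 1478 of the 1481 lower had the same sign in KO cells. Median changes in these 2 sets were 2.90 and −2.48 in wild-type and 2.90 and −2.24 in KO cells. The test of the difference between the responses called 0 genes by edgeR (0%), with a lowest adjusted p of 0.144, and DESeq2 called 6. In the edgeR test 476 genes had an unadjusted p below 0.05, fewer than the 676 expected by chance. Missing the adjusted threshold does not show that the responses are alike.

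Side by side, Irf7 changed by 8.61 ± 0.96 in wild-type and 6.72 ± 0.87 in KO cells, Cd274 by 7.02 ± 0.22 and 7.21 ± 0.22, and Slc7a2 by 7.59 ± 0.62 and 7.72 ± 0.62. Among falling genes, Top2a changed by −7.92 ± 0.35 and −7.13 ± 0.34, Mrc1 by −6.63 ± 0.42 and −6.27 ± 0.42, and Rpl3 by −3.66 ± 0.28 and −2.94 ± 0.27. Met rose by 3.89 ± 0.15 in wild-type and 5.24 ± 0.17 in KO cells. In each of these pairs the direction was the same.

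**Figure D5:**
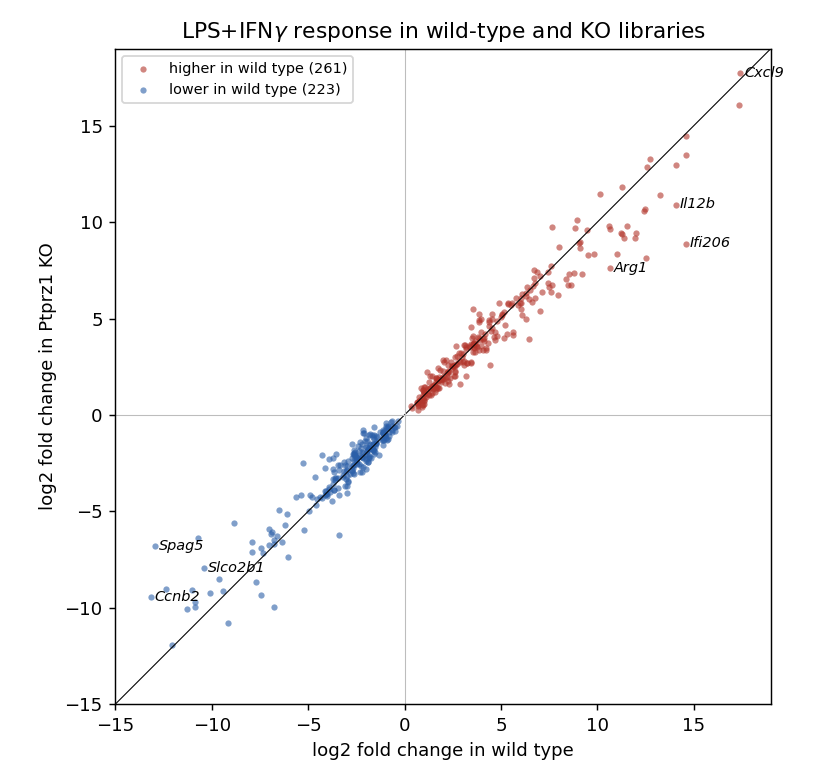
Log2 fold change of LPS+IFNγ against control in KO libraries (y) against that in wild-type libraries (x) for the genes named by the fixed rule and called in wild type, 261 higher in red and 223 lower in blue, with the diagonal of equal change. Points follow the diagonal, and Ifi206, Spag5 and Ccnb2, which had 0 counts or 1 count in a wild-type group, lie off it; fitted values at such counts depend on the prior count.

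Wild-type cells given IL-4, the stimulus of alternative activation, were set against the LPS+IFNγ cells in the same fit. LPS+IFNγ cells were higher than IL-4 cells in 3794 genes (28.1%) and lower in 3806 (28.1%). Egr2 was at 190.2 and 198 CPM after IL-4 (LPS+IFNγ against IL-4 −7.88 ± 0.44, adjusted p = 8.75e-07), and Mrc1 at 914 and 1103 CPM (−7.86 ± 0.44, adjusted p = 9.64e-07). Arg1, which rose under LPS+IFNγ, was higher still at 1499 and 1612 CPM after IL-4 (−1.82 ± 0.53, adjusted p = 0.015), and Slc7a2 was at 363 and 377 CPM, under its LPS+IFNγ level (2.70 ± 0.49, adjusted p = 0.00115). Cx3cr1 was at 2.51 and 1.42 CPM after IL-4, so it was low after both stimuli, and the difference between them was not called (−1.51 ± 0.59, adjusted p = 0.0521). All 48 S phase and replication genes and 79 of 80 mitosis and kinetochore genes were lower after LPS+IFNγ than after IL-4 (medians −2.50 and −4.81 against −0.03 over all genes), with Top2a at 253 and 262 CPM (−7.00 ± 0.34, adjusted p = 4.65e-07) and Mki67 at 284 and 316 CPM (−5.18 ± 0.40, adjusted p = 5.42e-06). Rpl3 was at 719 and 692 CPM after IL-4 (−3.77 ± 0.28, adjusted p = 4.35e-06). This comparison shares the LPS+IFNγ libraries with the one against control, so the 2 are not independent.

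Some calls on genes of known role were lost when 1 library was left out, which leaves 1 library in its group. Calls over all genes also became fewer in these fits. Irf4, a factor of alternative activation, was at 1.9 and 1.58 and then 0.409 and 0.271 CPM (−2.33 ± 0.80, adjusted p = 0.033), and no call was left when any 1 of the 4 libraries was left out (adjusted p from 0.0671 to 0.152). The same held for the iron exporter Slc40a1, lower at 78.3 and 102 against 285 and 266 CPM (−1.61 ± 0.49, adjusted p = 0.0193, then 0.0532 to 0.117), and for platelet factor 4, Pf4, lower at 27.3 and 33.9 against 57.5 and 73 CPM (−1.09 ± 0.38, adjusted p = 0.0366, then 0.0606 to 0.175). Csf1, the gene of M-CSF, was higher at 35 and 49.9 against 1.94 and 7.93 CPM (3.10 ± 0.89, adjusted p = 0.0149), but not without control library 1 (adjusted p = 0.0951) or stimulated library 2 (0.0579). The receptor kinase Axl rose to 287 and 265 from 160.0 and 121 CPM (0.97 ± 0.25, adjusted p = 0.00883), but not without control library 2 (0.0764) or by library size alone (0.115). C1qa, of the classical complement pathway, was lower at 165 and 209 against 331 and 414 CPM (−0.99 ± 0.24, adjusted p = 0.00571), but not without stimulated library 1 (0.0551).

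With both wild-type libraries numbered 2 left out, chosen after seeing the data because of their stromal transcripts, calls also ended for Slc7a1 (−1.27, adjusted p = 0.0622), Cxcr4 (−2.55, adjusted p = 0.066), Mmp12 (−2.11, adjusted p = 0.0597), Cd80 (1.89, adjusted p = 0.0889) and Maf (1.10, adjusted p = 0.0565), while each change kept its direction. Of the genes given as not called, Irf8 (−0.84, adjusted p = 0.00109), Ccl9 (−1.25, adjusted p = 0.00642), P2rx7 (−0.92, adjusted p = 0.00762), Rps24 (−0.70, adjusted p = 0.00194) and Apoe (−0.82, adjusted p = 0.0356) were called lower by library size alone. In a fit of the 4 compared libraries alone, the same 5 genes were called lower, as were Ccr2 (−1.89, adjusted p = 0.00663) and Mmp9 (−0.44, adjusted p = 0.00928). Upper quartile factors called Irf8, Ccl9, P2rx7 and Rps24 lower, leaving out the low-count filter called Ccl9 and Ccr2, and DESeq2 called Ccl9.

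The size of some changes, but not their call, depended on 1 library. Without control library 2 the change was 12.95 for Arg1, 11.13 for Clic5, 12.35 for Iigp1 and 11.98 for Cfb. In the same setting it was 10.69 for Il1b, 6.52 for Thbs1, 4.82 for Timp1 and 8.45 for Tnfsf10. Without control library 1 it was 9.78 for Arg1, 9.57 for Clic5, 10.63 for Iigp1 and 4.69 for Thbs1. That setting also gave 14.07 for Cxcl10, 9.10 for Fpr1 and 12.72 for Mx1. Among falling genes, leaving out stimulated library 1 gave −3.44 for Epas1 and −6.78 for Hpgd, and leaving out stimulated library 2 gave −5.28, −8.67 and, for Rrm2, −8.63.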

How the data were processed

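Gene counts of 12 libraries were used, and the 4 wild-type control and LPS+IFNγ libraries were compared. The deposited values are estimated counts per Ensembl gene and library, all whole numbers and not scaled. The submitters' processing notes name FastQC 0.11.9, Salmon 1.10.2, DESeq2 1.45.3 and R 4.4.1, without their roles, and build GRCm39. RNA was made into libraries with a directional kit, per the labels' protocols. Neither the annotation nor the use of strand is given in the sources used here, so antisense and overlapping genes are uncertain.

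Symbols and exon lengths came from a GRCm38 annotation, which named 51425 of 55891 identifiers (92.0%). The low-count filter of edgeR 4.0.16 (filterByExpr, minimum count 10) left 13525 genes. One quasi-likelihood model with a mean for each of the 6 groups was fitted to the 12 libraries (R 4.3.3, TMM factors, 6 residual degrees of freedom), p-values were adjusted by Benjamini-Hochberg over all genes, and changes beyond 2-fold were tested with glmTreat. A fold against a group at 0 counts was set against 3 counts in its shallowest library, and with 1 to 3 counts a ratio with an exact 95% interval is given; both cover counting error only. The pipeline was tested on simulated counts in which a small set of genes was changed equally in both directions. That setting lacks the shift in counts described above, so it cannot check the scaling under it.

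Libraries of a group differed by 7.10 (control) and 7.81 (LPS+IFNγ) times the sampling variance per gene, so none was counted as a duplicate. The members, gene lists and tests were chosen with earlier results of these data known. Genes are named where they lead the changes of a list or of all genes by size among called genes, lie nearest to 0 in a list, or have a fixed role; others are said to be chosen after their values were seen, and some genes are not reported here. Alternatives were other scalings, filters, DESeq2 1.42.0, a replicate block, the 4 libraries alone and leaving out each library.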

Additional observations from a re-analysis of the deposited data

How the results depend on the processing

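Beside the 3700 higher and 3648 lower genes (1371 and 1481 beyond 2-fold), library size alone gave 2048 and 6170 (975 and 2469 beyond 2-fold). With a replicate block the counts were 3812 and 3814 (1438 and 1557 beyond 2-fold), and of the genes given as not called Ccl9 (adjusted p = 0.0472) and Ccr2 (0.0488) passed. The shared library numbers were not shown to mark a common source: library 2 minus library 1 correlated between groups at 0.43 for the wild-type pair, and over 0.1 in 14 of 15 pairs of groups. Leaving out 1 library gave 2776 to 2972 higher and 2809 to 2925 lower genes (1086 to 1150 and 1140 to 1223 beyond 2-fold), with the lone library left in a group assumed to vary like the others. Without both wild-type libraries numbered 2, a setting chosen after seeing the data, 2128 were higher and 2144 lower (842 and 908 beyond 2-fold). The difference between wild-type and KO responses called 0 genes, also with the replicate block, 8 without a low-count filter, 6 by DESeq2 and 0 to 27 with 1 library left out: 27 without KO LPS+IFNγ library 1, 11 without KO control library 2 and 1 without KO LPS+IFNγ library 2. The cause was not tested. The depth sets a floor of 0.146 to 0.204 CPM for 3 counts in these 4 libraries.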

Other observations

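Of 13 coding genes of the mitochondrial genome, which are outside the gene lists, 6 were lower after LPS+IFNγ and 0 higher. Over all genes 27.0% were lower and 27.4% higher. All 13 had log2 fold changes below 0 by TMM, whether called or not. mt-Nd1, a complex I subunit, averaged 1238 CPM in control and 332 CPM in stimulated libraries (−1.90 ± 0.33, adjusted p = 0.000999, edgeR), and mt-Co3, a complex IV subunit, averaged 958 and 263 CPM (−1.87 ± 0.30, adjusted p = 0.000614). mt-Co1, the most abundant of them in CPM, was at 10794 and 7238 CPM and was not called (adjusted p = 0.082), though it was called lower by DESeq2 (0.035), by library size alone, with upper quartile factors, without the low-count filter and in a fit of the 4 compared libraries. The ribosomal RNA mt-Rnr1 was higher, at 114 and then 285 CPM (1.32 ± 0.36, adjusted p = 0.0115), but not without control library 1 (adjusted p = 0.0674) or 2 (0.0511) or by library size alone (0.0567). These 4 genes were chosen after their values were seen.

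RNA classes also differed in their calls, where 27.4% of all genes were higher and 27.0% lower. Of 191 tested genes annotated as antisense, 55 were higher, near the share of all genes, and 13 lower, under it. Of 46 from bidirectional promoters 20 were higher and 5 lower, beside 3362 higher and 3415 lower of 12047 protein-coding genes. Of 228 long intergenic RNAs, 57 were higher and 46 lower. Reads of an antisense gene and of its partner cannot be told apart here, since the use of strand in counting is not given.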
